A study of Mus musculus with 6 samples.

Results

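The mitosis and spindle genes described here are 41 protein-coding genes, found in the deposited table of raw gene counts by the Ensembl identifiers of their mouse symbols. All 41 symbols matched 1 of the 49315 rows each, all 41 had counts in each of the 6 libraries (the lowest was 28 counts), and all 41 were among the 16688 genes that passed the filter on low counts. The rule names the genes by their part in cell division and uses no measured value, but the list was proposed with earlier results of these data known.

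Dividing cells switch these genes on together late in the cell cycle. Cyclin A and cyclin B activate the kinase CDK1, which drives entry into mitosis; Polo-like and Aurora kinases then build the spindle, kinetochore proteins attach chromosomes to its microtubules, and a checkpoint holds the sisters together until every chromosome is attached. The anaphase-promoting complex, a ubiquitin ligase, then ends mitosis by marking cyclin B and securin for destruction. Many of their promoters share the cell cycle genes homology region (CHR), through which the DREAM complex keeps them off in resting cells and B-MYB and FOXM1 turn them on in cycling cells, and the CCAAT box, which the activator NF-Y binds.

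Polyadenylated RNA came from wild-type mouse tail-tip skin cells in 3 groups of 2 libraries each. Fibroblasts carried control lentiviral vectors (day 0), early cells carried vectors of the SAM version of CRISPR activation (day 7), and late cells (day 22) had the activation vectors too, came from picked colonies and are labelled CRISPR-induced cardiac progenitors. CRISPR activation brings activator domains to chosen promoters on an inactivated Cas9, and every group thus carried lentiviral vectors. The sources used here do not give the targeted genes, the age of the mice or whether replicates were separate cultures. The p-values thus rest on the spread between libraries, which may be technical. The labels call early replicate 1 early reprogrammed and early replicate 2 partially reprogrammed, and the 2 libraries are therefore given apart. The early and late columns were assigned by their names, which are not exact sample titles. If that reading were wrong, early and late values would change places.

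Total counts ranged from 20172874 to 40122999 per library. The floor of 3 counts corresponded to between 0.0748 and 0.149 CPM, the count scaled to the size of the library. These floors come before the TMM scaling that the other CPM values have. Summed over 6 fibroblast markers (Col1a1, Col1a2, Pdgfra, Thy1, Dcn and Lum), CPM was 2947 and 4929 in the fibroblast libraries, 2730.2 and 8194 in early replicates 1 and 2 and 1924 and 2213 in the late libraries. Most of the sum in early replicate 1 came from Col1a1 (1910 CPM) and Col1a2 (766 CPM), both within the fibroblast range. The other markers were far lower in that library than in either fibroblast library. Dcn stood at 3.21 CPM (fibroblasts 176, 140), Pdgfra at 38.2 (514, 329), Thy1 at 12.4 (362, 217) and Lum at 0 counts. The median marker was thus at 25.3 CPM there, against 381 (fibroblast replicate 1), 273 (fibroblast replicate 2) and 605 (early replicate 2). Late replicate 2 stood apart: 6 heart muscle markers summed to 44504 CPM there and to between 13.9 and 114 CPM in the other 5 libraries, 5 endothelial markers to 624 CPM against at most 23.1, and 4 erythroid markers to 922 CPM against at most 2.56. Mitochondrial genes took 10.3% of its counts and 1.48% to 2.16% in the others. Fibroblast replicate 1 (54.5 CPM) and late replicate 1 (61.1 CPM) were alone in having Xist, the X inactivation transcript, above 0.335 CPM, while genes of the Y chromosome summed to 73.4 and 136 CPM in that pair and to between 127 and 256 CPM in the other 4. Of 4 keratinocyte markers, Krt5, Krt14 and Krt1 were at 0 in both fibroblast libraries. Krt10, the other marker, was at 3.39 and 3.32 CPM there and at 2.04 to 4.21 CPM in early and late cells. The 8 macrophage markers summed to 256 and 1054 CPM in fibroblasts and to 50.9 to 174 CPM in the other libraries. Of these markers, 7 had a lower fitted value than fibroblasts in early and in late cells, and Cd14 a higher one. Cd14 stood at 20.2 CPM (fibroblast replicate 1), 35.4 (fibroblast replicate 2), 110.6 (early replicate 1), 40.2 (early replicate 2), 67.1 (late replicate 1) and 72.96 (late replicate 2). It made up most of the sum in both early libraries and in late replicate 1. Adgre1, Itgam and Fcgr1 were at 0 in early replicate 1. The part of these differences in the values below was not tested. In bulk RNA, more dividing cells and more of each transcript per dividing cell cannot be told apart.

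The promoters of 7 of the genes show the elements the group shares. They were chosen to include the 2 genes with the highest CPM of the list in early replicate 1 (Top2a and Mki67) and CDK1. The choice also took in a spindle motor, a condensin subunit and an activator of the anaphase-promoting complex. All of these have CHR matches, and a kinetochore gene without a match (Nuf2) was added. Each stretch ends at the base before the RefSeq transcription start (build GRCm38.p6, 5′ to 3′ on the gene's strand). The stretches lie at chr11:99024190-99024389 (Top2a, reverse strand), chr7:135716380-135716579 (Mki67, reverse), chr10:69352913-69353012 (Cdk1, reverse), chr19:37376282-37376381 (Kif11, forward), chr5:45669825-45669924 (Ncapg, forward), chr4:118437344-118437443 (Cdc20, reverse) and chr1:169531465-169531564 (Nuf2, reverse). Capitals mark CHR matches (TTTGAA or TTCGAA, either strand) and CCAAT boxes (CCAAT, either strand).
Top2a: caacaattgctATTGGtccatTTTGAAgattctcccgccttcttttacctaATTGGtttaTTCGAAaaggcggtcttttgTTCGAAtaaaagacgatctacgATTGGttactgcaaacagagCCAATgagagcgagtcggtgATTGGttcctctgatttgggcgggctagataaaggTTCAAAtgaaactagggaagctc
Mki67: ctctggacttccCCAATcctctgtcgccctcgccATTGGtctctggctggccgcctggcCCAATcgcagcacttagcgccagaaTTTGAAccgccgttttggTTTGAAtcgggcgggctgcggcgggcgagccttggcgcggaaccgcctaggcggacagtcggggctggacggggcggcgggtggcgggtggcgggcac
Cdk1: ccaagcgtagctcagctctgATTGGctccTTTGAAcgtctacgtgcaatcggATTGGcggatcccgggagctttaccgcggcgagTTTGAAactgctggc
Kif11: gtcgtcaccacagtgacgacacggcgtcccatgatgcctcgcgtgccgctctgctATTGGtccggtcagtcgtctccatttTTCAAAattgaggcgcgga
Ncapg: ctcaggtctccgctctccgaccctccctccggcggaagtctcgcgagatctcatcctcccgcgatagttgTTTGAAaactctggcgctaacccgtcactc
Cdc20: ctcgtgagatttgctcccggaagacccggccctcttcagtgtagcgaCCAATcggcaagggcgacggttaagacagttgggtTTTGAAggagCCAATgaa
Nuf2: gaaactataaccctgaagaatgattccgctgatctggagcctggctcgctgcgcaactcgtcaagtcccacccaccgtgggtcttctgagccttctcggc

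The Top2a stretch of 200 bases held 4 CHR and 5 CCAAT matches, and the nearest CHR began 23 bases before the start. In Cdk1, Kif11 and Cdc20 a CHR lay within 20 bases of the start, with at least 1 CCAAT box further upstream, while Nuf2 held neither.

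Promoter windows of 300 bases (250 before to 50 after each start) were found in RefSeq for 33 of the 41 genes. A CHR match was present in 26 of the 33 (78.8%), against 21.7% of all 27025 genes in the promoter table. Within 50 bases of the start, 24 of the 33 (72.7%) had a CHR, against 6.12% of all genes. A CCAAT box was present in 25 of the 33 (75.8%), against 41.1% of all genes, and both elements in 23 (69.7%), against 8.61%. Among 44 further mitotic genes, 38 had a window and 26 of those (68.4%) a CHR. Of 26 DNA replication genes with a window, 5 (19.2%) had a CHR and 16 (61.5%) a CCAAT box. In the plot of motif shares the CHR bars differ more between mitotic and replication genes than the CCAAT bars do. A match is a string of letters and not a measured binding site, and neither motif contains the other. No match was present in the windows of Birc5, Mad2l1, Nuf2, Nusap1 and Pttg1. The RefSeq starts of Pttg1, Cdca8 and Kif2c lie 270, 2394 and 3867 bases inside the genes as GENCODE draws them.

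**Figure D1:**
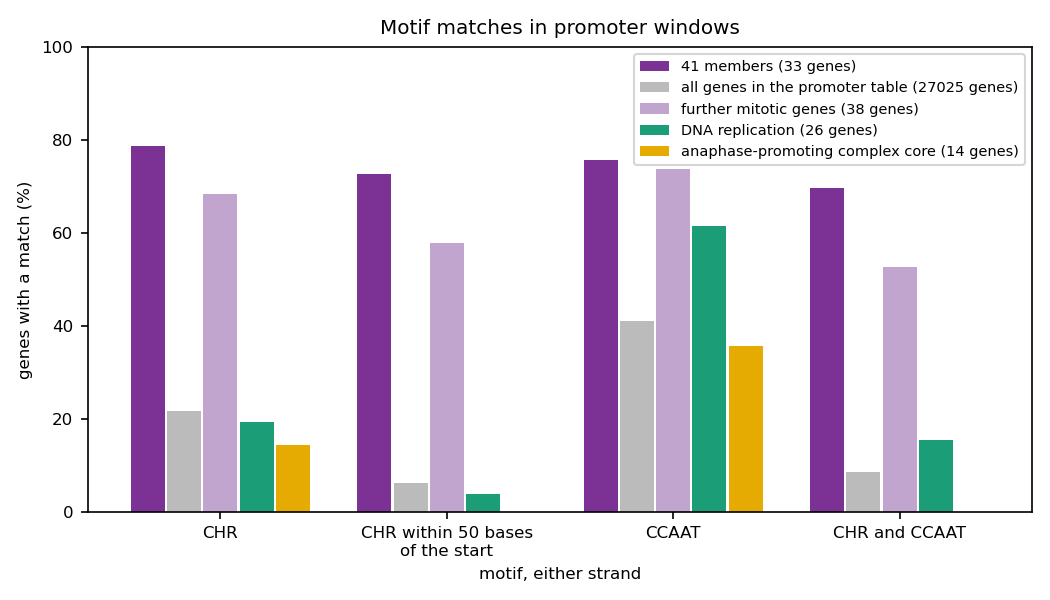
Share of genes (percent, y axis) whose RefSeq promoter window of 300 bases holds each motif on either strand, for 33 of the 41 mitosis and spindle genes, all 27025 genes in the promoter table and 3 further lists. A CHR within 50 bases of the start was found in 72.7% of the members with a window and 6.12% of all genes.

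The order of the groups of libraries was the same for every gene except Pttg1. For 40 of 41 genes early replicate 1 was the highest library, both late libraries followed, early replicate 2 came next and the fibroblast libraries were lowest; among all 16688 genes tested, early replicate 1 was highest for 19.6% and both late libraries lay between the 2 early ones for 12.5%. Summed over the 41 genes, the level was 381 and 287 CPM in fibroblasts, 5659 CPM in early replicate 1, 1078 CPM in early replicate 2, and 2725 and 2749 CPM in late cells. The plot of levels by gene shows this order in every role, with Pttg1, which encodes securin, apart.

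**Figure D2:**
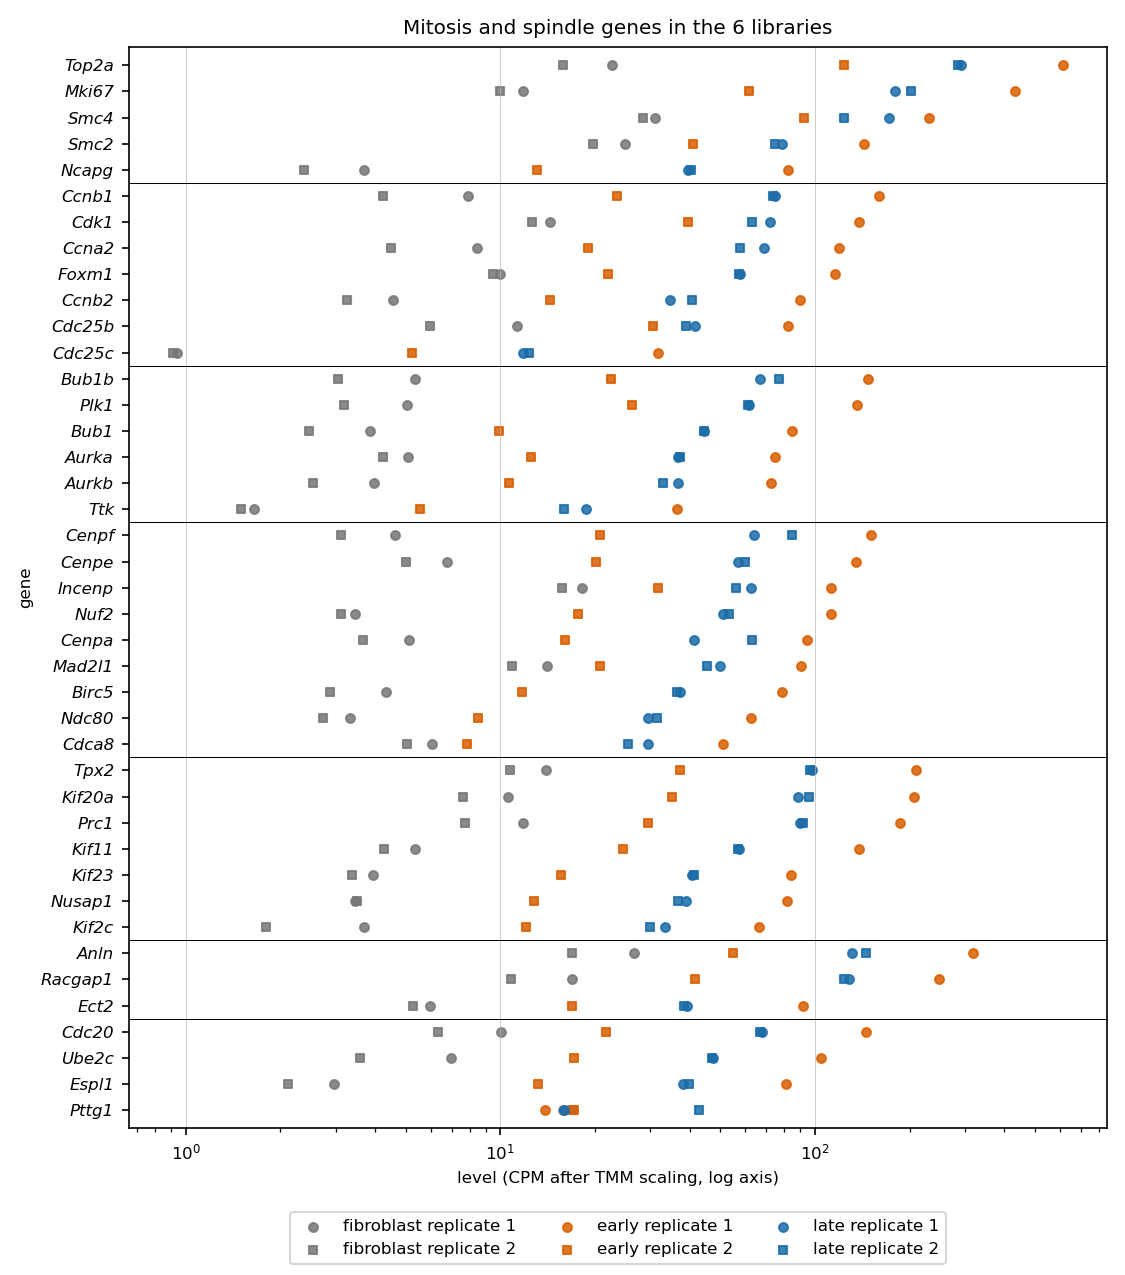
Level of each of the 41 genes (CPM after TMM scaling, log axis) in the 6 libraries, grouped by role from top to bottom: marks and topology, cyclins and CDK1, kinases, centromere and kinetochore, spindle, cytokinesis, anaphase. Early replicate 1 lies furthest right for 40 genes and both fibroblast libraries furthest left; Pttg1, in the bottom row, does not follow.

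Among the 7 roles, general proliferation marks and chromosome topology had the highest median over fibroblasts in each of the 4 CRISPR activation libraries. Mki67 encodes Ki-67, the coat of mitotic chromosomes by which proliferating cells are counted (ENSMUSG00000031004, chromosome 7, 135689784 to 135716361 on the reverse strand of GRCm38). It stood at 11.8 and 9.97 CPM in fibroblasts, 432 and 61.6 CPM in early replicates 1 and 2, and 180.2 and 203 CPM in late cells. Top2a encodes topoisomerase II alpha, which untangles sister DNA (ENSMUSG00000020914, chromosome 11, 98992943 to 99024189 on the reverse strand of GRCm38). It had the highest CPM of the 41 genes in early replicate 1, with 613 CPM in early replicate 1, 291 and 286 CPM in late cells, 124 CPM in early replicate 2 and 22.6 and 15.9 CPM in fibroblasts. For both genes no early or late library overlapped the fibroblasts, and early replicate 2 lay 4.96-fold (Top2a) and 7.02-fold (Mki67) below early replicate 1.

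Condensin, the ring complex that compacts chromosomes, was represented by 3 subunits. The mitotic subunit Ncapg was at 3.69 and 2.38 CPM in the fibroblast libraries, 13.1 CPM in early replicate 2, 39.6 and 40.3 CPM in the late libraries and 82.3 CPM in early replicate 1. The core subunits Smc2 and Smc4 act in both condensins and had higher levels in fibroblasts. Smc2 was at 24.9 and 19.7 CPM in fibroblasts, 143 and 40.9 CPM in early replicates 1 and 2, and 78.6 and 74.7 CPM in late cells. Smc4 (ENSMUSG00000034349, chromosome 3, 69004738 to 69034623 on the forward strand of GRCm38) was at 229.9 CPM in early replicate 1, 173 and 123 CPM in late cells, 92.4 CPM in early replicate 2 and 31.1 and 28.4 CPM in fibroblasts. Early replicate 1 was highest in all 3, followed by the late libraries, but early replicate 2 came within 1.34-fold of late replicate 2 for Smc4.

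Cyclins, CDK1 and the factors that switch it on followed. Ccna2, the S and G2 phase cyclin, was at 8.43 and 4.501 CPM in fibroblasts, 119.8 and 18.98 CPM in early replicates 1 and 2, and 68.9 and 57.96 CPM in late cells. Ccnb1, the main mitotic cyclin, was at 159.9 CPM in early replicate 1, 74.8 and 73.7 CPM in late cells, 23.4 CPM in early replicate 2 and 7.92 and 4.24 CPM in fibroblasts. Its partner kinase Cdk1 was at 14.4 and 12.6 CPM in the fibroblast libraries, 39.7 CPM in early replicate 2, 71.8 and 63.3 CPM in the late libraries and 138 CPM in early replicate 1. By the fitted values, none of them called, late cells were 4.998-fold above fibroblasts for Cdk1, 9.82-fold for Ccna2 and 12.2-fold for Ccnb1. Foxm1, the transcription factor that drives G2 and M phase genes, was at 10.01 and 9.501 CPM in fibroblasts, 116 and 21.96 CPM in early replicates 1 and 2, and 57.6 and 57.2 CPM in late cells. The phosphatase Cdc25c, which removes the inhibitory phosphates of CDK1, had the lowest level per kilobase of exon of all 41 genes in every library, with 31.6 CPM in early replicate 1, 11.8 and 12.3 CPM in late cells, 5.25 CPM in early replicate 2 and 0.9401 and 0.912 CPM in fibroblasts. It also had the most negative fitted difference between late and early cells among the members, -0.61 ± 0.81 (SE) on the log2 scale (edgeR adjusted p = 0.847).

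The mitotic kinases had the second highest role median over fibroblasts in early replicate 1 and in both late libraries. Plk1, the Polo-like kinase of centrosome maturation and mitotic exit (ENSMUSG00000030867, chromosome 7, 122159439 to 122169873 on the forward strand of GRCm38), was at 5.07 and 3.18 CPM in fibroblasts, 136 and 26.2 CPM in early replicates 1 and 2, and 61.6 and 61.2 CPM in late cells. Aurka, the Aurora kinase of the spindle poles, was at 74.96 CPM in early replicate 1, 36.6 and 37.2 CPM in late cells, 12.5 CPM in early replicate 2 and 5.103 and 4.24 CPM in fibroblasts, and Aurkb, the Aurora kinase of the inner centromere, was at 3.96 and 2.53 CPM in the fibroblast libraries, 10.7 CPM in early replicate 2, 36.6 and 33.02 CPM in the late libraries and 72.7 CPM in early replicate 1. Both were highest in early replicate 1 and lowest in the fibroblasts, and neither had an early or late library within the fibroblast range. Bub1, a checkpoint kinase of the kinetochore, was at 3.86 and 2.47 CPM in fibroblasts, 84.8 and 9.89 CPM in early replicates 1 and 2, and 44.5 and 44.3 CPM in late cells. Between the early libraries Bub1 differed by 8.57-fold, the widest gap of the 41 genes, and between the late libraries by a ratio of 1.004.

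Centromere and kinetochore genes showed the same order. Birc5, or survivin, which brings Aurora B to centromeres, was at 4.33 and 2.88 CPM in fibroblasts, 78.6 and 11.7 CPM in early replicates 1 and 2, and 37.1 and 36.5 CPM in late cells. Cenpa, the histone H3 variant that marks centromeres, was at 94.7 CPM in early replicate 1, 41.3 and 63.02 CPM in late cells, 16.04 CPM in early replicate 2 and 5.14 and 3.65 CPM in fibroblasts, and its late libraries differed by 1.53-fold. Cenpf, a large kinetochore protein, was at 4.63 and 3.12 CPM in the fibroblast libraries, 20.8 CPM in early replicate 2, 63.9 and 84.6 CPM in the late libraries and 151 CPM in early replicate 1, and had the largest fitted difference of the members between late cells and fibroblasts. Ndc80 and Nuf2 form the arm of the kinetochore that grips microtubules. Ndc80 was at 3.32 and 2.74 CPM in fibroblasts, 62.6 and 8.52 CPM in early replicates 1 and 2, and 29.5 and 31.6 CPM in late cells, and Nuf2 was at 113 CPM in early replicate 1, 50.98 and 53.2 CPM in late cells, 17.6 CPM in early replicate 2 and 3.46 and 3.12 CPM in fibroblasts. Mad2l1, which encodes the checkpoint protein MAD2, had a smaller range, with 14.03 and 10.9 CPM in the fibroblast libraries, 20.8 CPM in early replicate 2, 49.9 and 45.5 CPM in the late libraries and 90.6 CPM in early replicate 1.

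Among spindle genes, Kif11, the motor that pushes spindle poles apart, was at 5.34 and 4.27 CPM in fibroblasts, 138 and 24.5 CPM in early replicates 1 and 2, and 57.5 and 57.01 CPM in late cells. Tpx2, which activates Aurora A and nucleates microtubules, was at 210.5 CPM in early replicate 1, 98.1 and 96.7 CPM in late cells, 37.3 CPM in early replicate 2 and 13.97 and 10.8 CPM in fibroblasts. Prc1, which bundles the microtubules of the midzone, was at 11.8 and 7.74 CPM in the fibroblast libraries, 29.5 CPM in early replicate 2, 89.4 and 91.8 CPM in the late libraries and 186 CPM in early replicate 1. Kif23, a motor of the midzone and cytokinesis, was at 3.93 and 3.38 CPM in fibroblasts, 84.2 and 15.6 CPM in early replicates 1 and 2, and 40.7 and 41.3 CPM in late cells. Ect2, the exchange factor that activates RhoA for the contractile ring, was at 92.02 CPM in early replicate 1, 39.1 and 38.5 CPM in late cells, 16.9 CPM in early replicate 2 and 5.98 and 5.27 CPM in fibroblasts. After TMM scaling, the late libraries of these 5 genes nearly coincided, with ratios of late replicate 1 to 2 from 0.974 (Prc1) to 1.02 (Ect2).

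Of the genes that end mitosis, 3 followed the common order and Pttg1 did not. Cdc20, the activator of the anaphase-promoting complex, was at 10.04 and 6.32 CPM in fibroblasts, 146 and 21.6 CPM in early replicates 1 and 2, and 68.1 and 66.9 CPM in late cells. Ube2c, its ubiquitin-conjugating enzyme, was at 105 CPM in early replicate 1, 47.5 and 47.1 CPM in late cells, 17.1 CPM in early replicate 2 and 6.95 and 3.59 CPM in fibroblasts. Espl1, or separase, which cuts the cohesin between sisters, was at 2.95 and 2.12 CPM in the fibroblast libraries, 13.2 CPM in early replicate 2, 38.01 and 39.8 CPM in the late libraries and 80.7 CPM in early replicate 1. Pttg1, the securin that holds separase inactive until anaphase (ENSMUSG00000020415, chromosome 11, 43420250 to 43426251 on the reverse strand of GRCm38), was at 15.8 and 16.9 CPM in fibroblasts, 13.9 and 17.2 CPM in early replicates 1 and 2, and 15.9 and 42.7 CPM in late cells. Late replicate 2 was high and early replicate 1 lowest, and the range of the early libraries enclosed that of the fibroblasts. Correlated over the 6 libraries with the mean log2 CPM of the other 40 genes, Pttg1 gave r = 0.18 and each of the others at least 0.969, a description over 6 libraries that share groups. No gene overlaps the exons of Pttg1 in GENCODE.

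The 12 members not given by value (Ccnb2, Cdc25b, Ttk, Bub1b, Incenp, Cdca8, Cenpe, Kif20a, Kif2c, Nusap1, Anln and Racgap1) ranged from 36.5 CPM (Ttk) to 318 CPM (Anln) in early replicate 1. In early replicate 2 the same 2 genes set the range, from 5.54 to 54.9 CPM, and in fibroblasts they did so from 1.5002 to 26.6 CPM. All 12 kept the order of libraries described above. Kif20a shares 29.3% of its exon bases with Cdc23 on the opposite strand, and Ncapg 13.4% with Lcorl. The share is 12.7% for Cdc25c (with Gm3550), 12.5% for Ccna2 (with Exosc9) and 11.1% for Prc1 (with Rccd1), also on opposite strands. Whether the counting used strand is not stated in the sources, so their values carry that uncertainty. Ube2c shares 22.8% with Tnnc2, which had 0 counts in all libraries.

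Per kilobase of exon (the union of all annotated exons, which understates genes with long rare isoforms), the levels can be compared between genes. In early replicate 1 the highest levels per kilobase were 78.1 CPM for Cdc20, 68.02 for Top2a, 62.02 for Plk1 and 58.7 for Ccnb2, and the median of the 41 genes was 22.6. In the late libraries Cdc20 was again highest, with 36.5 and 35.8 CPM per kilobase. In fibroblasts Pttg1 led with 7.91 and 8.44 CPM per kilobase, ahead of Smc4 with 5.96 and 5.44, against medians of 1.43 and 0.991. Pttg1, first of the 41 in fibroblasts, was second lowest in early replicate 1 with 6.93.

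The comparison of early cells with fibroblasts asks which of these genes differed at day 7. The fitted level was higher in early cells for 40 of 41 genes, with a median log2 fold change of 3.66 (median of all genes tested 0.0038), and both early libraries lay above both fibroblast libraries for 40 genes, against 32.3% of all genes tested. With edgeR's quasi-likelihood test and adjustment over all genes, 0 of 41 rose and 0 fell, against 0.695% of all genes called higher and 0.833% called lower. At an unadjusted p under 0.05, 40 of 41 were higher, against 15.3% of all genes. The adjusted p of those 40 lay between 0.0642 (Top2a) and 0.141 (Cdca8). The largest fitted change was that of Mki67, 4.50 ± 0.96 (SE, adjusted p = 0.0712). The smallest among the 40 were those of Smc2 (2.04 ± 0.60), Incenp, the scaffold of the Aurora B complex (2.09 ± 0.60), and Mad2l1 (2.16 ± 0.69). Pttg1 was at -0.08 ± 0.49 (adjusted p = 0.937).

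The count of calls turned on which early library was kept. Without early replicate 2, 40 of 41 genes were called higher by edgeR (smallest adjusted p = 0.0209), with a median log2 fold change of 4.49, against 546 of all genes called in either direction (2.91%). Without early replicate 1, 0 were called (smallest adjusted p = 0.073), the median was 1.72, and 38 of 41 passed an unadjusted p under 0.05, against 3529 of all genes (18.7%). Each of these fits keeps 1 early library, whose spread is then assumed to be that of the other groups. DESeq2 called 40 of 41 higher in the full data, and 4046 of the 31952 genes with a count (12.7%).

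**Figure D3:**
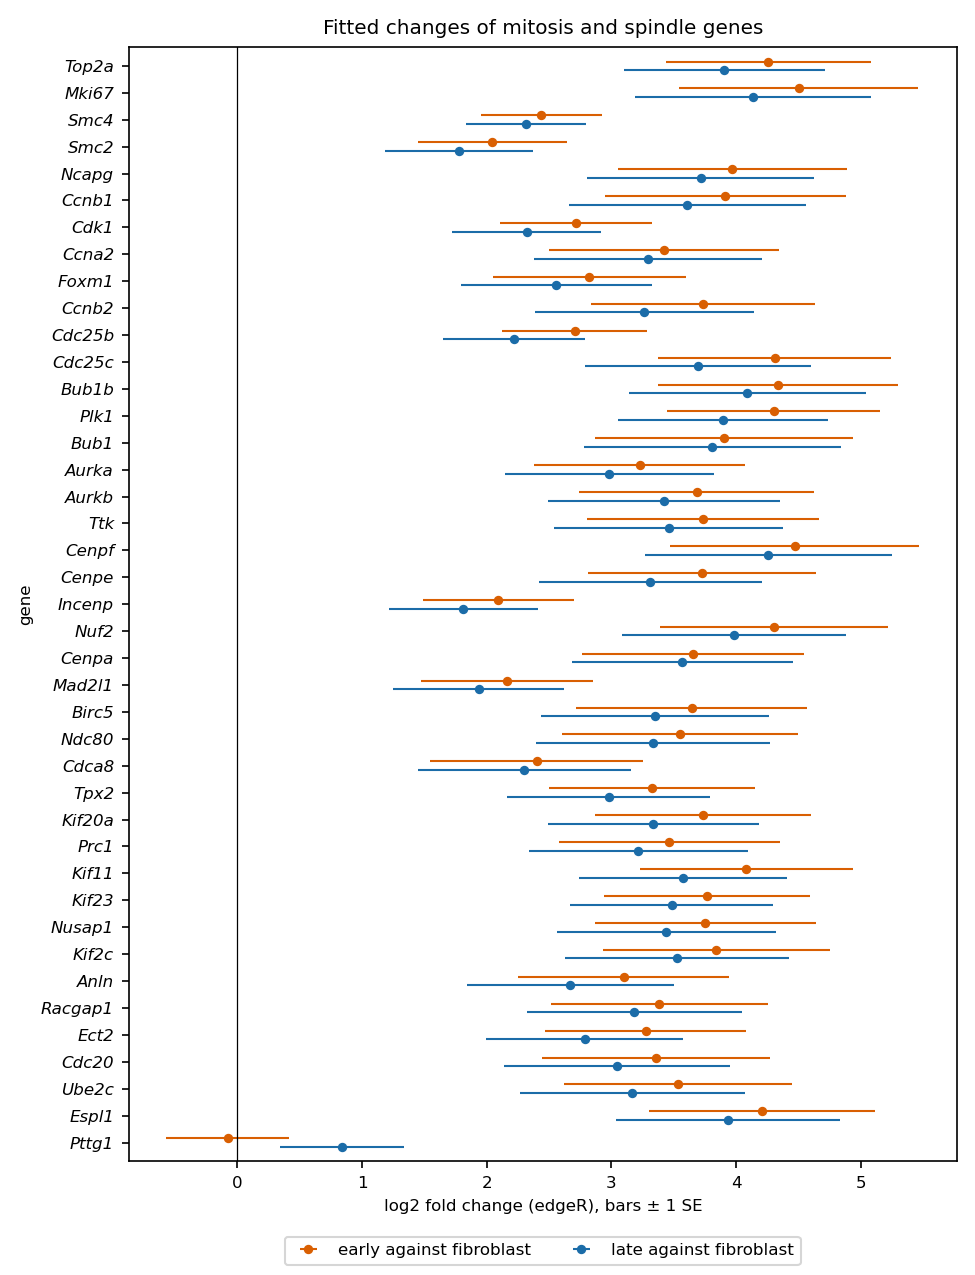
Fitted log2 fold change of each gene (x axis, edgeR, points, with bars of 1 standard error to each side) for early against fibroblast and late against fibroblast cells, 2 libraries a group. All genes except Pttg1 lie at 1.78 or more in both comparisons, and the 2 comparisons share the fibroblast libraries.

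The early libraries lay on opposite sides of the late libraries for the 40 genes other than Pttg1. Over the mean of the fibroblast log2 CPM, the median gene was 4.48 higher on the log2 scale in early replicate 1 (range -0.24 to 5.32) and 1.78 higher in early replicate 2 (0.07 to 2.71). The ratio of early replicate 1 to early replicate 2 had a median of 6.02 over the 41 genes, with quartiles of 5.39 and 6.57. Over all genes tested with counts in both, the median ratio was 0.995, with quartiles of 0.688 and 1.38, and 3.29% were above 4, against 35 of the 41. The genes with the narrowest gaps were Pttg1 (0.806), Smc4 (2.49), Cdc25b (2.69), Cdk1 (3.48), Smc2 (3.498) and Incenp (3.56). Early replicate 2 was nonetheless above both fibroblast libraries for all 41 genes, against 43.8% of all genes tested. With 1 library of each description there is no replicate check of the difference between them.

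After TMM scaling, the late libraries nearly coincided. Their scaling factors were the highest and lowest of the 6 libraries, 1.19 (late replicate 1) and 0.893 (late replicate 2). Before that scaling, the 41 genes took 0.324% of the total counts of late replicate 1 and 0.244% of those of late replicate 2. The ratio of late replicate 1 to late replicate 2 had a median of 1.01 over the 41 genes and quartiles of 0.954 and 1.06, against quartiles of 0.709 and 1.35 over all genes tested. The same libraries stood 70.8 against 44504 CPM in the summed heart muscle markers. Pttg1 (2.68-fold higher in late replicate 2), Cenpa (1.53-fold) and Cenpf (1.32-fold) were the members furthest above 1, and Smc4 was lower in late replicate 2 by a ratio of 0.715. The fibroblast libraries also differed in 1 direction, with fibroblast replicate 1 higher for 39 of 41 genes (median ratio 1.39), against 50.8% of all genes tested. The plot of within-group ratios shows the members other than Pttg1 above the quartiles of all genes in early cells. In late cells the members lie inside those quartiles, except Pttg1, Cenpa and Smc4.

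**Figure D4:**
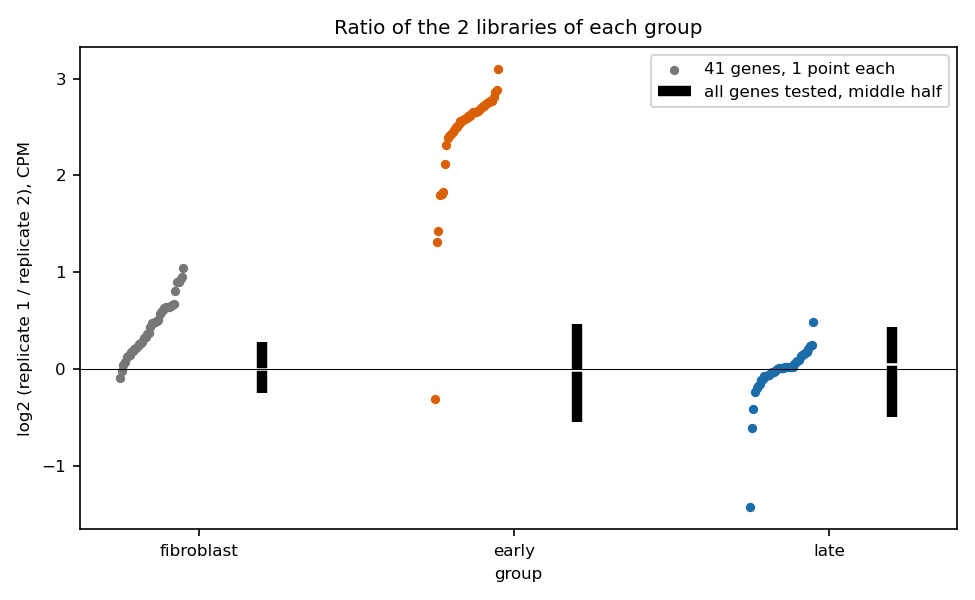
Ratio of replicate 1 to replicate 2 in each group (log2 of CPM, y axis), 1 point for each of the 41 genes sorted by value, beside the span between the quartiles of all genes tested (black bar, median in white). In early cells 40 of the 41 ratios run from 2.49 to 8.57, while in late cells the members' quartiles are 0.954 and 1.06.

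The comparison of late cells with fibroblasts asks which of the genes differed at day 22. All 41 fitted values were higher in late cells, with a median log2 fold change of 3.33 (median of all genes tested 0.11), and both late libraries lay above both fibroblast libraries for 40 genes, against 35.7% of all genes tested. By edgeR, 0 of 41 rose and 0 fell after adjustment over all genes, against 0.641% called higher and 0.779% called lower, and 40 were higher at an unadjusted p under 0.05, against 17.2%. The adjusted p of those 40 lay between 0.0656 and 0.138. Cenpf had the largest change, 4.26 ± 0.99 (SE, edgeR adjusted p = 0.0743), followed by Mki67 with 4.13 ± 0.94. Pttg1 had 0.84 ± 0.50 (adjusted p = 0.284), a value that turned to -0.04 without late replicate 2.

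The fit takes 1 spread from all 6 libraries, the early ones included. With the 4 late and fibroblast libraries alone, edgeR called 39 of 41 higher (smallest adjusted p = 0.0249), all except Cdc25b and Pttg1, against 1016 of all genes (6.14%). With early replicate 1 or early replicate 2 left out, edgeR likewise called 39, against 603 and 734 of all genes (3.2% and 3.91%). DESeq2 called 40 on all 6 libraries, and 4721 of the 31952 genes with a count (14.8%). The edgeR calls of members did not hold without any 1 of the 4 late and fibroblast libraries. Each of those fits leaves 1 library in a group, so only its median is given here. The median was 3.527 without fibroblast replicate 1 and 3.081 without fibroblast replicate 2. It was 3.258 without late replicate 1 and 3.275 without late replicate 2.

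No member was called between late and early cells in any fit run. The fitted value was lower in late cells for 40 of 41 genes, with a median of -0.28 on the log2 scale (Pttg1 was the exception, at 0.92 ± 0.50) and standard errors between 0.46 and 0.92, and the libraries of the 2 groups overlapped for all 41, while 17.6% of all genes tested had both late libraries below both early ones. By edgeR 0 of 41 were called and 0 at an unadjusted p under 0.05. Across all genes tested by edgeR 0 (0%) were called and 1709 (10.2%) passed an unadjusted p under 0.05. DESeq2 called 1101 of the 31952 genes with a count (3.45%), 0 of them among the 41. For Mki67 the difference was -0.37 ± 0.83 and for Plk1 -0.40 ± 0.74. The direction differed with the early library kept: without early replicate 1 the median became 1.499, with all 41 higher in late cells, and without early replicate 2 it was -1.12, with 40 lower, and in each of these fits 36 of 41 passed an unadjusted p under 0.05, against 2262 and 1306 of all genes (12% and 6.95%).

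Within a library the roles lay close to each other. In late replicate 1 the median over fibroblasts ranged from 2.80 on the log2 scale (3 cytokinesis genes) to 3.74 (5 genes of marks and topology), and in late replicate 2 from 2.78 to 3.76 for the same 2 roles. In early replicate 1 it ranged from 4.04 to 4.79, again for these roles, and in early replicate 2 from 1.59 (cytokinesis) to 2.14. The plot by role shows early replicate 1 above and early replicate 2 below the late libraries in all 7 roles.

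**Figure D5:**
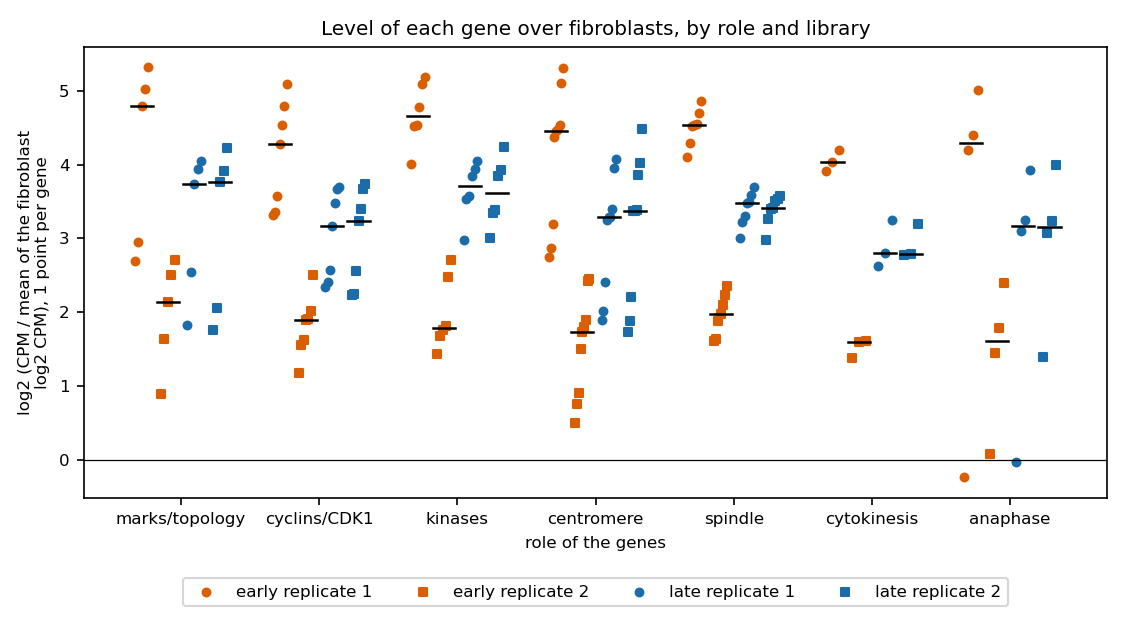
Level of each gene over the mean of the 2 fibroblast libraries (log2 of CPM, y axis) in the 4 CRISPR activation libraries, by role (x axis), with the median of each role as a bar. Early replicate 1 is highest and early replicate 2 lowest in every role, and the late libraries lie between them, with Pttg1 as the low point among the anaphase genes.

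A contrast of all 4 CRISPR activation libraries with the fibroblasts, taken as the mean of the early and late groups in the same fit, was added after the values had been seen. It shares all its libraries with the comparisons above. Of the 41 genes, 8 rose and 0 fell (edgeR adjusted p under 0.05), against 3.37% of all genes called higher. They were Top2a (4.08 ± 0.78, adjusted p = 0.0413), Smc4 (2.38 ± 0.45, 0.0408), Plk1 (4.10 ± 0.81, 0.0436), Nuf2, Mki67, Kif11, Kif23 and Espl1. All 4 libraries lay above both fibroblast libraries for 40 of 41 genes, against 25.4% of all genes tested, and 40 passed an unadjusted p under 0.05 in the higher direction, against 17.2%. Without the filter on low counts 5 were called, of which 1 (Smc4) was among the 8. That fit called 3260 of the 31952 genes with a count in either direction (10.2%). The number called was 25 without early replicate 1, against 427 of all genes (2.27%), and 40 without early replicate 2, against 1490 (7.93%). It was 0 without late replicate 1 or late replicate 2, where 829 and 1380 of all genes were called, and 0 without fibroblast replicate 1 or 2, where 0 and 2 were.

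Other genes of the pathway were counted in lists. Of 44 further mitotic genes, 43 had a higher fitted value in early cells and 43 in late cells, 0 were called in either, and the medians were 3.54 and 3.23. Aspm, a spindle pole protein, was at 2.55 and 1.71 CPM in fibroblasts, 104 and 16.1 CPM in early replicates 1 and 2, and 41.2 and 48.1 CPM in late cells. Gtse1, which binds microtubules and p53, was the 1 gene with a lower fitted value, with 99.6 CPM in early replicate 1, 51.6 and 35.8 CPM in late cells, 21.6 CPM in early replicate 2 and 72.2 and 52.9 CPM in fibroblasts. Of 14 DREAM and MuvB regulators, 9 were higher in each comparison and 0 were called, with medians of 0.47 and 0.37. Mybl2, which encodes B-MYB, was at 1.44 and 1.0001 CPM in the fibroblast libraries, 6.67 CPM in early replicate 2, 28.8 and 19.7 CPM in the late libraries and 40.98 CPM in early replicate 1, while the DREAM subunit Rbl2 was at 86.1 and 77.4 CPM in fibroblasts, 59.8 and 83.8 CPM in early replicates 1 and 2, and 53.2 and 53.3 CPM in late cells. Nfya, a subunit of the factor that binds CCAAT boxes, was at 62.9 CPM in early replicate 1, 62.6 and 53.7 CPM in late cells, 46.8 CPM in early replicate 2 and 37.8 and 40.6 CPM in fibroblasts. Mybl2 and, over a narrower range, Nfya thus had the order of groups seen in the mitotic genes, and Rbl2 did not. Of the same list, Rbl1, Lin9 and Tfdp1 also had this order. Rbl1 was at 7.86 and 9.59 CPM in fibroblasts and at 63.3 and 11.2 CPM in early replicates 1 and 2. Its late libraries stood at 34.3 and 33.3 CPM. The NF-Y subunits Nfyb and Nfyc did not have the order. Nfyb was at 33.6 and 43.02 CPM in early replicates 1 and 2, and Nfyc was highest in late replicate 2 (44.6 CPM).

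The core genes of the anaphase-promoting complex, listed together with Fzr1, which encodes another activator of it, had medians near 0. Of the 15, Fzr1 included, 6 were higher in early and 8 in late cells, 0 were called, and the medians were -0.07 and 0.02. Anapc5 had the highest CPM of the list in early cells, 319.99 and 286 CPM in early replicates 1 and 2. It was at 190.4 and 226 CPM in fibroblasts and at 266 and 299 CPM in late cells. Of 10 other condensin and cohesin subunits all 10 were higher in both comparisons with 0 called. Their early changes on the log2 scale ran from 0.9993 (Ncaph2) to 3.87 (Ncaph) over the 5 condensin genes, and from 0.70 (Stag1) to 1.24 (Smc1a) over the 5 cohesin genes, which serve cells outside mitosis too.

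DNA replication genes had smaller medians than the mitotic genes: 31 of 32 were higher in each comparison, 0 were called, and the medians were 2.64 and 2.28. Summed over the 32, CPM was 497 and 460.0 in fibroblasts, 3238 and 849 in early replicates 1 and 2 and 2038 and 1728 in late cells. Of 6 genes of G1 cyclins and kinases, 3 were higher and 3 lower in each comparison with 0 called, and Ccnd2, cyclin D2, was at 967 and 989 CPM in fibroblasts, 448 and 276 CPM in early replicates 1 and 2, and 455 and 304 CPM in late cells. Of 7 CDK inhibitor genes, 1 rose and 1 fell in each comparison. At an unadjusted p under 0.05, 3 were higher and 4 lower in early cells, and 4 higher and 3 lower in late cells. Cdkn2a was lower in both without being called (log2 fold changes of -2.94 and -4.82, edgeR adjusted p = 0.0724 and 0.0508). Cdkn1b (p27) rose in both (2.43 and 1.92, adjusted p = 0.0368 and 0.0493). Cdkn1a (p21) fell in early cells (-2.16, adjusted p = 0.0484), and its late value was close, at -2.06 (adjusted p = 0.0523). Cdkn2b (p15) fell in late cells (-4.95, adjusted p = 0.0485), and its early value was -4.22 (adjusted p = 0.0526). These calls rested on both fibroblast libraries: without fibroblast replicate 1 or fibroblast replicate 2, edgeR called 0 of all genes tested in either comparison, and 6 genes were called in early cells without early replicate 1 and 8 in late cells without late replicate 2.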

How the data were processed

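The authors deposited raw read counts per Ensembl gene for 6 libraries. The submitters' processing notes name Trimmomatic 0.36, STAR 2.5.2b, featureCounts, Subread 1.5.2 and GRCm38; strand, annotation release and the treatment of multi-mapping reads are not given in these sources. Symbols, positions and exon lengths came from GENCODE M21 (GRCm38), promoters from RefSeq (GRCm38.p6).

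The counts were fitted with edgeR 4.0.16 (R 4.3.3): default expression filter (16688 of 49315 genes), TMM scaling, and a robust quasi-likelihood fit of 3 group means over 6 libraries, with 3 residual degrees of freedom and a common biological coefficient of variation of 48.6%. Adjustment was by Benjamini-Hochberg over all genes tested, and genes rose or fell at an adjusted p under 0.05. The fold change and F statistic gave the standard errors. CPM values are after TMM scaling, except the floors. The fit was also run on simulated counts, whose outcome is not given here and on which no result above rests. Alternatives were other scalings, no filter, DESeq2 1.42.0, a replicate block, the compared groups alone and leaving out each library. Without the filter and by DESeq2, counts of calls are out of the 31952 genes with at least 1 count, not out of 16688. The contrast of all CRISPR activation libraries was added after the data were seen. Values were named for 25 genes of a fixed set and for members that were called or at the extremes of a comparison. The members and lists were chosen with earlier results of these data known. Floors cover counting error only.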

Additional observations from a re-analysis of the deposited data

How the results depend on the processing

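The direction against fibroblasts held for the 40 members other than Pttg1 in every alternative, while the number called did not hold, and the cause was not tested. In early against fibroblast cells, 255 genes and 0 members were called; the numbers were 514 and 2 with total counts as the only scaling (Plk1 and Top2a), 2337 and 5 without the filter, and 4046 and 40 by DESeq2, and 1469 genes and 0 members were called with the 2 compared groups only. Leaving out 1 library gave 0 to 823 genes, 0 to 40 members and a median log2 fold change of 1.724 (without early replicate 1) to 4.485 (without early replicate 2).

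In late against fibroblast cells, 237 genes and 0 members became 2495 and 4 without the filter, 4721 and 40 by DESeq2 and 1016 and 39 with the 2 compared groups only. Leaving out 1 library gave 0 to 1058 genes and 0 to 39 members.

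In late against early cells, 0 genes became 276 without the filter, 1101 by DESeq2 and 0 to 602 with 1 library left out, and the members' median of -0.284 ranged from -1.12 to 1.499.

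In the added contrast, 1657 genes and 8 members became 3260 and 5 without the filter (1 of the 8 among them). With total counts only they became 1402 and 23. Leaving out 1 library gave 0 to 1490 genes, 0 to 40 members and medians of 2.536 to 3.904.

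Pttg1 turned in direction without being called. Its early value was 0.094 with total counts, 0.003 with upper quartile scaling and -0.199 to 0.076 with 1 library left out. Its late value was -0.044 to 1.297, and its value in the added contrast was -0.062 to 0.621. Both turned without late replicate 2.

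Same-numbered libraries are not stated to be paired, and their deviations correlated at r = 0.127, 0.215 and 0.081 over 15585 genes (across genes, which are not independent). With the replicate block, 26 genes and 0 members were called in early cells, 9 and 0 in late cells and 690 and 2 in the added contrast (Cdc25b and Smc4, 1 of them among the 8), and the late against early median was 0.042, with 28 members higher and 13 lower. DESeq2 was not run for the added contrast. With 20172874 to 40122999 counts a library, the lowest member count was 28, so depth limited no member's detection.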
